A study of Mus musculus with 9 samples.

Results

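The mitochondrial respiratory chain was followed here through 43 genes, of 22524 counted per library, in mouse bone marrow-derived macrophages with and without the transcription factor SRF (serum response factor). The members were taken by name: 37 nuclear genes and 6 genes of mitochondrial DNA (symbols starting with mt-) that encode subunits of complexes I to V and cytochrome c. The 3 groups were SRF-KO cells with LPS for 6 h, wild-type cells with LPS for 6 h, and wild-type cells left untreated, with 3 RNA-sequencing libraries in each. LPS (lipopolysaccharide) is a bacterial cell-wall component that activates macrophages. All cells came from bone marrow of C57BL/6 mice and had 7 days of culture in dishes without surface treatment. The titles call the wild-type libraries Control. How Srf was deleted, in which cells and with which promoter, is not given in the sources used here, nor is whether the 3 libraries of a group came from separate animals, so p-values measure the spread between these libraries. There was no untreated SRF-KO group, so an effect of genotype without LPS was not analysed here.

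The respiratory chain passes electrons from NADH (complex I) and succinate (complex II) through ubiquinone to complex III, and from there by cytochrome c to complex IV, which reduces oxygen. The proton gradient that complexes I, III and IV build drives the ATP synthase, complex V. Mitochondrial DNA encodes a few hydrophobic core subunits of complexes I, III, IV and V, transcribed in the organelle as long RNAs that are then cut, while the remaining subunits, all of complex II among them, are transcribed in the nucleus and imported. In macrophages, LPS is known to shift energy metabolism towards glycolysis.

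Srf itself had 34, 24 and 12 counts in the SRF-KO libraries, against 738, 799 and 900 in LPS-treated wild type and 810, 975 and 884 in untreated wild type. Total counts per library were between 15321839 and 24912173, and the biological coefficient of variation over all genes was 3.461%. In bulk RNA, fewer cells of a type and less RNA per cell cannot be told apart. All 8 macrophage markers checked were above the filter, with a summed level of 24190 to 24415 CPM (counts scaled to a common library size) in SRF-KO, 22921 to 23410 in LPS-treated wild type and 16684 to 17207 in untreated wild type, but within that list Fcgr1, an Fc receptor gene, was lower in SRF-KO than in LPS-treated wild type, by a log2 fold change of −4.46. Of the 8 markers, 3 rose and 5 fell in SRF-KO and 5 rose and 3 fell with LPS by the edgeR test described below (4 and 4 for LPS with library totals), with Cd14, a co-receptor for LPS, highest in log2 fold change (0.75 in SRF-KO, 3.68 with LPS) and Mertk, a receptor for apoptotic cells, lowest with LPS (−1.09). Among markers of other cells, the 6 erythroid genes summed to at most 0.232 CPM in any library, with Hba-a2, Hbb-bs and Hbb-bt at 0. The 8 neutrophil genes summed to 18.8 to 20.5 CPM in SRF-KO, 6.33 to 7.33 in LPS-treated wild type and 2.24 to 2.56 in untreated wild type, with Elane at 0. The 5 osteoclast genes summed to 159 to 166 CPM in SRF-KO, 54.3 to 57.8 in LPS-treated wild type and 16.8 to 19.3 in untreated wild type. Of the 4 tested in that list, 4 were higher in SRF-KO, and with LPS 3 were higher and 1 lower by the same test (1 and 1 with library totals). Ctsk, a collagen-degrading protease, rose in SRF-KO (log2 fold change 4.47). It was the one that fell with LPS (−0.73), at low levels in both groups (1.11 ± 0.058 CPM in LPS-treated wild type and 1.85 ± 0.24 in untreated wild type, SD, n = 3 each). Acp5, an acid phosphatase, rose with LPS (1.76). The 6 dendritic cell genes, with Cd209a at 0, summed to 11.1 to 12.3, 2.78 to 4.03 and 0.480 to 0.814 CPM in the groups in that order, and the 6 stromal and endothelial genes, with Col1a1 and Col3a1 at 0, to 28.0 to 30.2, 20.2 to 26.3 and 1.87 to 2.17 CPM, of which 1 of 3 tested was higher and 2 lower in SRF-KO. The one that was higher was Pdgfrb, a growth factor receptor (0.90 in SRF-KO, 6.72 with LPS). It averaged 27.4 ± 1.26 CPM in SRF-KO and 14.8 ± 2.28 in LPS-treated wild type. In untreated wild type it averaged only 0.132 ± 0.0521 CPM (SD, n = 3 each), so the size of its LPS change is uncertain. B cell and T and NK cell genes, with Cd3d and Nkg7 at 0, stayed at or below 2.17 and 5.41 CPM. The 12 cell cycle genes summed to 1379 to 1428 CPM in SRF-KO, 145 to 152 in LPS-treated wild type and 1038 to 1083 in untreated wild type. The part of these markers in the results on the respiratory chain was not tested. Counts of 4 Y-linked genes summed to 6 in the SRF-KO libraries, 5991 in LPS-treated wild type and 7337 in untreated wild type, so the sex of the mice and the genotype cannot be told apart.

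Of the 13 protein-coding genes of mitochondrial DNA, the 6 members had between 4792 and 195707 counts per library. In contrast, 6 adjacent genes between positions 7013 and 10173 of chromosome M held 11 counts over all 9 libraries together, at most 3 in any of them. These are mt-Co2 and mt-Co3 (complex IV), mt-Atp8 and mt-Atp6 (complex V), and mt-Nd3 and mt-Nd4l (complex I). A stretch of nuclear DNA on chromosome 1 of build GRCm38 (chr1:24611535-24616197, minus strand) carries annotated copies of this region. The copy of mt-Co2, Gm28661, matched it at 681 of 681 aligned bases. The opening 90 bases of both are shown because mt-Co2 is among the genes with near-zero counts. Whether the identity led to those counts was not tested. The bases are in lower case throughout, with 0 differing bases (chrM:7013-7102, plus strand, and chr1:24615476-24615565, minus strand, read from the GRCm38 genome sequence).
mt-Co2: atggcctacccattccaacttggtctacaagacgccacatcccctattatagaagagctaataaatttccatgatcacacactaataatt
Gm28661: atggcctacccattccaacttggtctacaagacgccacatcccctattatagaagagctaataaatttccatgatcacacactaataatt

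The copies of mt-Co3, mt-Atp6, mt-Nd4l and of 63.6% of mt-Nd4 were identical over their aligned lengths, and the copy of mt-Nd3 was 99.7% identical. Of all 50-base windows of a gene, 100% in mt-Co2, 99.9% in mt-Co3, 99.5% in mt-Atp6, 98.8% in mt-Nd4l and 98.0% in mt-Nd3 also occurred in another annotated gene. For mt-Atp8 the share was 0%, but only annotated genes were searched, and no copy of mt-Atp8 was among those on chromosome 1. The bases between the copies of mt-Atp6 (ending at 24614651) and mt-Co2 (starting at 24614885) were not compared. Among the 6 members, 62.2% of windows of mt-Nd4, 51.1% of mt-Co1, 8.19% of mt-Nd2 and 7.61% of mt-Nd5 were shared, and 0% of mt-Nd1 and mt-Cytb. Whether reads that match more than 1 place were counted is not given in the sources used here, so counts of mt-Nd4 and mt-Co1 may hold only part of their reads. The mitochondrially encoded subunits of complex V could not be compared at these counts.

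**Figure D1:**
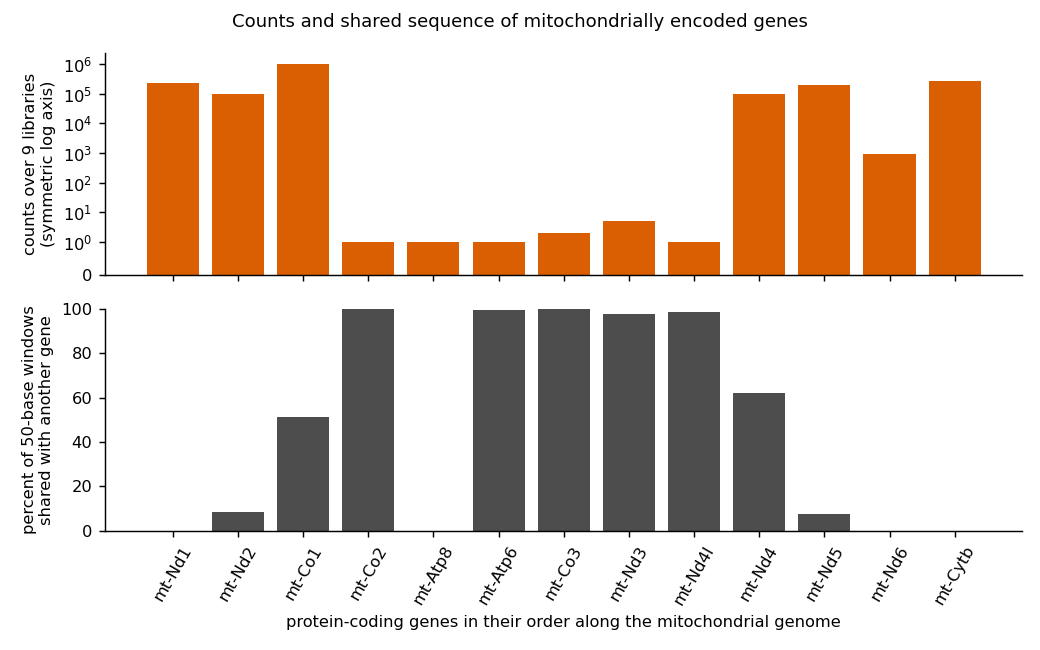
Upper panel, counts summed over the 9 libraries (symmetric log axis) for the 13 protein-coding genes in their order along the mitochondrial genome; lower panel, the percent of each gene's 50-base windows found in another annotated gene. The 6 genes from mt-Co2 to mt-Nd4l held 11 counts in all, and 5 of the 6 shared at least 98.0% of their windows.

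In SRF-KO macrophages with LPS, all 6 mitochondrially encoded members were higher than in LPS-treated wild type, whereas most nuclear-encoded members were lower relative to the other genes. The median log2 fold change was 0.77 over the 6 mitochondrial members (range 0.24 to 0.84) and −0.32 over the 37 nuclear ones (range −1.09 to 0.24), beside 0.014 over all 11560 genes tested. These values come from edgeR's quasi-likelihood test with TMM scaling, which sets the bulk of genes to no change, and a gene was counted as changed at a Benjamini-Hochberg adjusted p below 0.05 over all genes tested. All 43 members passed the filter on low counts. By this test 6 of 6 mitochondrial members rose and 0 fell, where 39.1% of all tested genes rose, and 1 of 37 nuclear members rose and 32 fell, where 37.9% of all genes fell. The calls of the nuclear members depended on the scaling. Their distance to the median of all genes did not, because a change of scaling moves all genes by the same amount. With library totals in its place every SRF-KO log2 fold change shifted up by 0.36, the median of all genes became 0.37, 61.1% of all genes were called higher and 21.1% lower, and of the nuclear members 13 were higher and 7 lower with a median of 0.036. That upward shift left the 6 mitochondrial members higher (median 1.13, range 0.60 to 1.20).

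The members with the same call under both scalings in SRF-KO against LPS-treated wild type were the 6 mitochondrial members and Ndufs8, which were higher, and Ndufs3, Ndufs4, Ndufs7, Sdhb, Cycs, Cox5a and Cox8a, which were lower. Another 8 nuclear members were called lower by TMM and higher with library totals (Ndufb5, Sdhd, Uqcrc1, Uqcrfs1, Cyc1, Cox4i1, Cox6c and Atp5b).

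**Figure D2:**
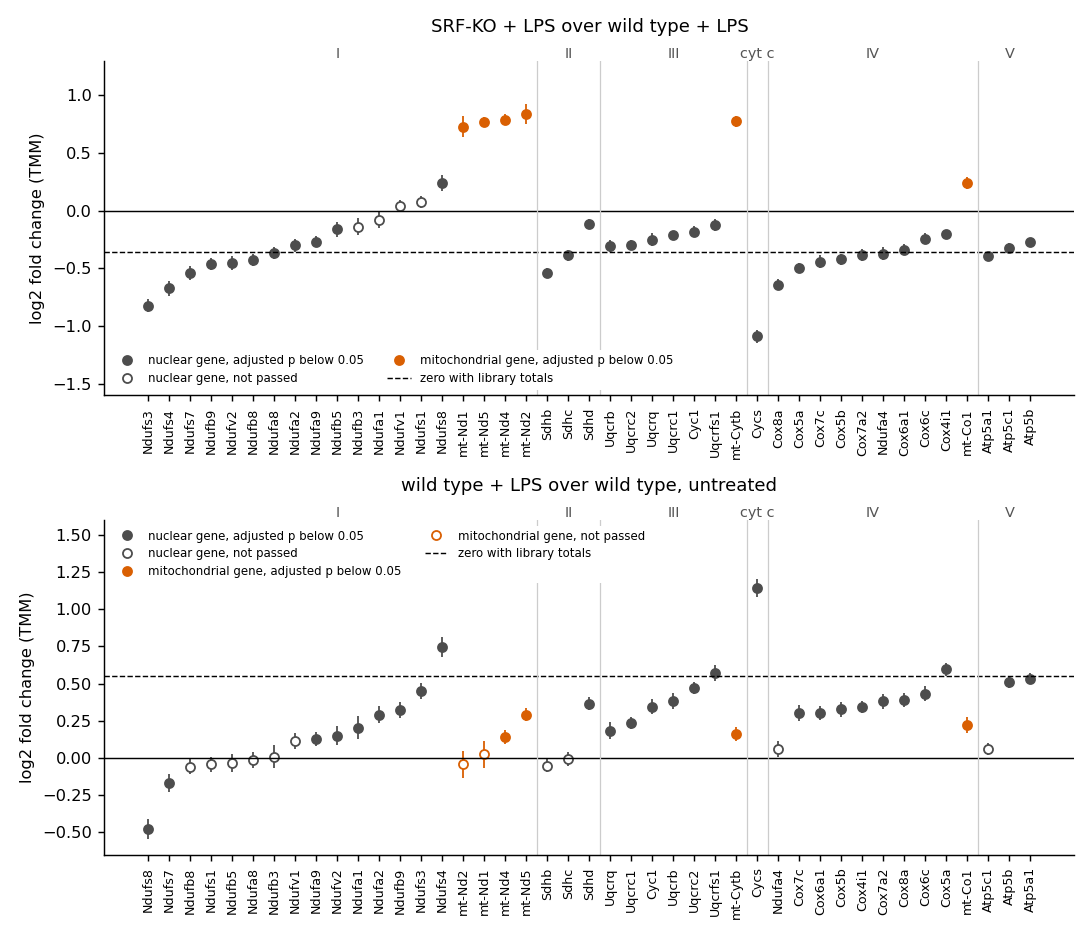
Log2 fold change with TMM scaling (points) and its standard error (bars) for the 43 members, grouped by complex, in SRF-KO with LPS over LPS-treated wild type (upper panel) and LPS-treated wild type over untreated wild type (lower panel); the dashed line is where zero lies if library totals are used. In the upper panel the mitochondrial members lie above both lines, 7 nuclear members pass the test below both of them, and the median nuclear member (−0.32) is lower by TMM but at 0.036 with library totals.

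The ratio of mitochondrially to nuclear-encoded counts within a library does not depend on scaling. Summed over all members it was 3.80, 4.18 and 3.60 in the SRF-KO libraries, against 2.08, 2.42 and 2.08 in LPS-treated wild type and 2.54, 2.53 and 2.33 in untreated wild type. The SRF-KO libraries did not overlap with either wild-type group, while the wild-type groups overlapped each other. On the log2 scale the ratio averaged 1.94 ± 0.11 in SRF-KO and 1.13 ± 0.13 in LPS-treated wild type (SD, n = 3 each), a difference of 0.82, or 1.76-fold. As a score over chosen members it is described without a test. Leaving out mt-Co1, the most abundant member, the difference was 1.10, and as the difference between medians per exon length it was 1.16.

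By complex, the ratio of the 4 mitochondrial to the 15 nuclear members of complex I was 8.42, 9.17 and 7.72 in SRF-KO, 3.79, 4.44 and 3.91 in LPS-treated wild type and 4.24, 4.0 and 3.78 in untreated wild type. In complex III, mt-Cytb to 6 nuclear members gave 4.08, 4.51 and 3.98 in SRF-KO, 2.06, 2.25 and 1.96 in LPS-treated wild type and 2.55, 2.45 and 2.22 in untreated wild type. In complex IV, mt-Co1 to 9 nuclear members gave 8.60, 9.82 and 8.39 in SRF-KO, 5.67, 6.39 and 5.42 in LPS-treated wild type and 6.61, 6.58 and 6.11 in untreated wild type. In all 3 complexes the SRF-KO libraries lay above all 6 wild-type ones, by 2.09-fold in complex I, 2.00-fold in complex III and 1.53-fold in complex IV over LPS-treated wild type. Within each complex the wild-type groups overlapped.

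**Figure D3:**
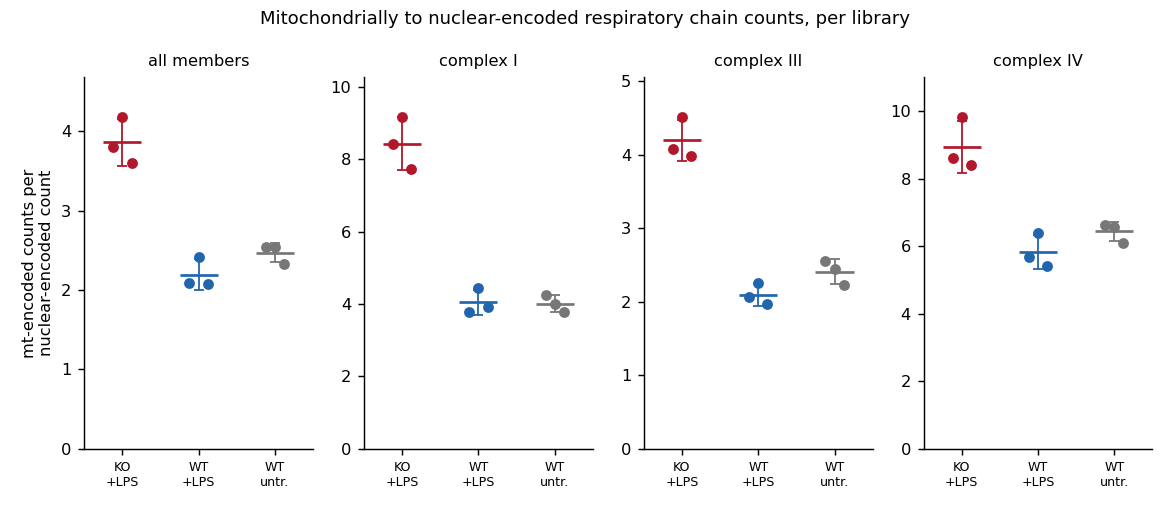
Mitochondrially encoded counts per nuclear-encoded count in each library (points), with the group mean (line) and SD (whisker, n = 3), over all members and within complexes I, III and IV, for SRF-KO with LPS, LPS-treated wild type and untreated wild type from left to right. The SRF-KO libraries, 3.60 to 4.18 over all members, lie above all wild-type libraries, 2.08 to 2.54, in every panel.

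Among the mitochondrial members, mt-Co1, which encodes the catalytic subunit of complex IV, had 6755, 7571 and 6566 CPM in SRF-KO, 5605, 6499.6 and 5570.2 CPM in LPS-treated wild type and 5069.7, 5345 and 4752 CPM in untreated wild type. The SRF-KO libraries were the highest, by a narrow margin over LPS-treated wild type (log2 fold change 0.24, SE 0.0524, adjusted p = 9.17e-05 by edgeR, or 0.60 with library totals). By length it was the most abundant member, at 4508 ± 346 CPM per kilobase in SRF-KO, 3813 ± 341 in LPS-treated wild type and 3272 ± 192 in untreated wild type (SD, n = 3 each).

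The gene for cytochrome b of complex III, mt-Cytb, had 2113, 2274 and 2060.2 CPM in SRF-KO, 1237, 1353 and 1179 in LPS-treated wild type and 1163, 1158 and 1052 in untreated wild type. It rose in SRF-KO by 0.77 in log2 terms (SE 0.0462; adjusted p = 7.06e-18 by edgeR), with no overlap between groups.

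The complex I genes mt-Nd1, mt-Nd2, mt-Nd4 and mt-Nd5 encode proteins of the membrane arm that takes part in proton pumping. mt-Nd1 had 1734, 1916 and 1593 CPM in SRF-KO, 932, 1183 and 1047 in LPS-treated wild type and 1088, 1074 and 944 in untreated wild type. For mt-Nd2 the levels were 776, 843 and 669 CPM in SRF-KO, 386, 469.7 and 423 in LPS-treated wild type and 467, 443 and 409 in untreated wild type. Both were higher in every SRF-KO library than in any other (log2 fold changes 0.73 and 0.84 over LPS-treated wild type). mt-Nd4 had 822, 853 and 762 CPM in SRF-KO, 454, 500.4 and 456 in LPS-treated wild type and 434, 447 and 399 in untreated wild type. mt-Nd5 had 1616, 1708 and 1508 CPM in SRF-KO, 910.4, 1008 and 922 in LPS-treated wild type and 789.7, 784 and 746 in untreated wild type. These too did not overlap between SRF-KO and LPS-treated wild type, with log2 fold changes of 0.79 and 0.77 (adjusted p at most 1.71e-05 for all 4 genes by edgeR). In each of the 6 mitochondrial genes replicate 2 was the highest of the wild-type libraries with LPS, and also of the SRF-KO libraries.

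**Figure D4:**
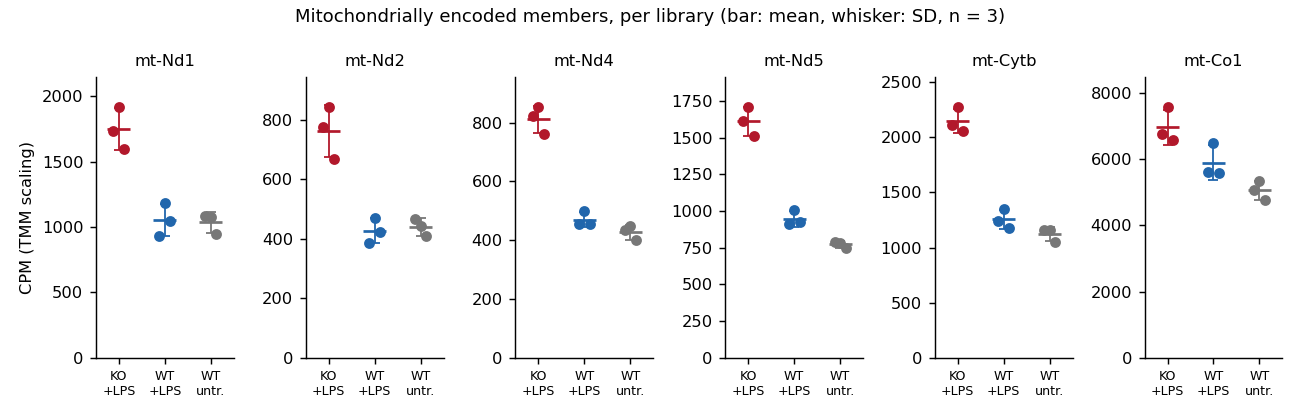
Level of each mitochondrially encoded member in CPM with TMM scaling, per library (points), with the group mean (line) and SD (whisker, n = 3), for SRF-KO with LPS, LPS-treated wild type and untreated wild type from left to right; each panel has its own axis from 0. The SRF-KO libraries are above all others in every panel, least in mt-Co1.

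The rise of mt-Co1 in SRF-KO was smaller than that of the other mitochondrial members. The ratio of mt-Co1 counts to the summed counts of the other 5 was 0.957, 0.997 and 0.996 in the SRF-KO libraries, against 1.43, 1.44 and 1.38 in LPS-treated wild type and 1.29, 1.37 and 1.34 in untreated wild type. No SRF-KO library overlapped with a wild-type one, and the log2 ratio was lower by 0.53 than in LPS-treated wild type (mean −0.025 ± 0.034 in SRF-KO and 0.50 ± 0.031 in LPS-treated wild type, SD, n = 3 each). This ratio was chosen after the values were seen. The ratios of mt-Nd1, mt-Nd2, mt-Nd4 and mt-Nd5 to mt-Cytb overlapped between SRF-KO and LPS-treated wild type. The ratio of mt-Nd4 to mt-Cytb averaged −1.40 ± 0.037 on the log2 scale in SRF-KO and −1.42 ± 0.040 in LPS-treated wild type. A further gene outside the members, mt-Nd6, the one protein gene on the other strand, had 216, 231 and 99 counts in SRF-KO, 45, 58 and 59 in LPS-treated wild type and 102, 82 and 53 in untreated wild type, a log2 fold change of 1.11 in SRF-KO over LPS-treated wild type (1.46 with library totals). Whether the counting used strand is not given in the sources used here, so its reads cannot be told apart from those of the opposite strand.

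By TMM the largest difference among nuclear members in both comparisons was in Cycs (somatic cytochrome c, chr6:50562563-50566538, minus strand; all gene positions are in build GRCm38), the soluble carrier between complexes III and IV. It had 42.1, 46.9 and 45.6 CPM in SRF-KO, against 97.9, 101 and 87.5 CPM in LPS-treated wild type and 46.1, 43.9 and 39.4 CPM in untreated wild type. Wild type with LPS was above both other groups in every library, and SRF-KO overlapped with untreated wild type. The log2 fold change was −1.09 (SE 0.0579) in SRF-KO over LPS-treated wild type and 1.14 (SE 0.0586) in LPS-treated wild type over untreated, with adjusted p of 2.04e-19 and 4.65e-20 by edgeR. Both kept their direction with library totals (−0.73 and 0.59), by which Ndufs8 had the largest LPS difference (−1.03). Relative to the other 36 nuclear members, whatever the scaling, Cycs was lower in SRF-KO than in LPS-treated wild type by 0.77 and higher in LPS-treated wild type than in untreated wild type by 0.81 on the log2 scale, with no overlap between the groups. Of its 50-base windows 26.1% also occurred in other genes, most in the pseudogene Gm10053.

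The promoter of Cycs is printed because it held the recognition letters of regulators known for respiratory chain genes, and that of Cox8a because this was the complex IV member with the largest fall in SRF-KO. Both are the 250 bases before the RefSeq transcription start in build GRCm38.p6 (Cycs, chr6:50566570-50566819, minus strand; Cox8a, chr19:7217617-7217866, minus strand). Capitals mark matches, on either strand, to GCATGCG (the core read by NRF1), TGACGTC (the cyclic AMP response element) and CCGGAAG (read by GABP). Matches on both strands overlap where a motif is nearly palindromic, and the GABP match at the end of the Cox8a line runs on past the start.
Cycs: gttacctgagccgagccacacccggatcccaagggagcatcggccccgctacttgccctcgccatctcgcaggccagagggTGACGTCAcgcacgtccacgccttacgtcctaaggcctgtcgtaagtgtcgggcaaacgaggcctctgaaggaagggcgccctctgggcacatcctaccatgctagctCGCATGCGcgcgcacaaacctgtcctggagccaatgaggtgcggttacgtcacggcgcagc
Cox8a: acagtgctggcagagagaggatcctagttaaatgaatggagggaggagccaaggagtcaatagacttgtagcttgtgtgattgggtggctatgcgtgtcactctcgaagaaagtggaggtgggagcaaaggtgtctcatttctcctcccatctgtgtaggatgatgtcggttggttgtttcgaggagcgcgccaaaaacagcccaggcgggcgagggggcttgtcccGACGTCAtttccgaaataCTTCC

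Over 300 bases (250 before and 50 after the start) promoters were found for 26 of the 37 nuclear members. NRF1 letters were in 5 of the 26 (19.2%) and in 4.01% of 27025 genes, GABP letters in 6 (23.1%) and in 9.93% of genes, and TGACGTC in 3 (11.5%) and in 3.60% of genes. AAGATGG (YY1) was in 5 (19.2%) and in 7.28% of genes, and AAGGTCA (oestrogen-related receptors) in 1 (3.85%) and in 5.38% of genes. These are letter matches and not measured binding. The 27025 genes were not limited to those expressed here, whereas all members passed the filter. Shares among expressed genes alone were not computed, so no enrichment is read from these values.

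In complex I, 10 of 15 nuclear members fell in SRF-KO and 1 rose by TMM, while 3 fell and 6 rose with library totals. The largest fall was in Ndufs3 (chr2:90894634-90904827, minus strand), a core subunit of the arm that leads electrons to ubiquinone. Its level was 29.5, 31.0 and 30.8 CPM in SRF-KO, 52.4, 53.6 and 55.2 in LPS-treated wild type and 38.2, 41.0 and 39.1 in untreated wild type. The SRF-KO libraries were below both wild-type groups (log2 fold change −0.82, SE 0.0562, adjusted p = 4.59e-16 by edgeR, and −0.47 with library totals). Of its windows 17.9% were shared, most with the pseudogene Gm12251.

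Ndufs4 (chr13:114287795-114388258, minus strand), an accessory subunit needed for a stable complex I, had 25.2, 30.3 and 28.8 CPM in SRF-KO, 42.8, 45.4 and 46.1 in LPS-treated wild type and 27.2, 28.0 and 24.9 in untreated wild type. Like Cycs it was higher in LPS-treated wild type than in both other groups, which overlapped. It fell in SRF-KO (log2 fold change −0.67, SE 0.0658; −0.32 with library totals) and rose with LPS (0.74, SE 0.0669; 0.19 with library totals), the largest rise of the nuclear complex I members.

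Ndufs8 (chr19:3908863-3912774, minus strand), a core subunit that holds iron-sulfur clusters, went against most of its complex by TMM in both comparisons, whereas with library totals most nuclear members of the complex that passed had its direction. It had 29.1, 29.1 and 29.1 CPM in SRF-KO, 24.6, 23.0 and 26.4 in LPS-treated wild type and 33.3, 37.2 and 32.8 in untreated wild type. The 3 groups did not overlap, with LPS-treated wild type lowest. Its log2 fold change was 0.24 in SRF-KO (SE 0.0691, adjusted p = 0.00227 by edgeR, 0.59 with library totals) and −0.48 with LPS (SE 0.0681, adjusted p = 5.53e-08, −1.03 with library totals). Ndufs7, which carries an iron-sulfur cluster close to the ubiquinone site, was lower with LPS as well (−0.17, −0.72 with library totals) and lower again in SRF-KO than in LPS-treated wild type (−0.54, −0.18 with library totals). By TMM the LPS call of Ndufs7 was lost without untreated replicate 2 or without replicate 3 of LPS-treated wild type (adjusted p = 0.0553 and 0.108 by edgeR).

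The subunits of the NADH-oxidising tip, Ndufv1, Ndufv2 and Ndufs1, did not move together. Ndufv2 was lower in SRF-KO by TMM (−0.45; −0.10, not passed, with library totals), while Ndufv1 and Ndufs1 did not pass (0.040 and 0.074) and were higher with library totals (0.40 and 0.43). Ndufa1 and Ndufb3, accessory subunits of the membrane arm, also did not pass by TMM (−0.077 and −0.14) and were higher with library totals (0.28 and 0.22); Ndufa1 is on the X chromosome. The other accessory members, Ndufa2, Ndufa8, Ndufa9, Ndufb5, Ndufb8 and Ndufb9, were called lower by TMM, between −0.46 and −0.16, and none was called lower with library totals. The call of Ndufb5 was lost without replicate 3 of LPS-treated wild type or without SRF-KO replicate 1 (adjusted p = 0.126 and 0.109 by edgeR). Ndufa2 had the highest level per length of the nuclear complex I members, with 42.8, 38.7 and 43.2 CPM in SRF-KO, 48.2, 51.1 and 53.6 in LPS-treated wild type and 40.0, 43.4 and 41.9 in untreated wild type, and SRF-KO overlapped with untreated wild type.

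Complex II oxidises succinate and has no mitochondrially encoded subunit. Sdhb (chr4:140961203-140979193, plus strand), its iron-sulfur subunit, had 74.9, 78.3 and 80.4 CPM in SRF-KO, 113, 111 and 114 in LPS-treated wild type and 113, 119.9 and 118 in untreated wild type. Its log2 fold change in SRF-KO was −0.54 (SE 0.0443, adjusted p = 1.04e-13 by edgeR; −0.18 with library totals), below both wild-type groups. The membrane anchor Sdhd, the member of complex II with the highest level per length, had 102, 96.4 and 98.4 CPM in SRF-KO, 108, 106 and 107 in LPS-treated wild type and 84.4, 83.6 and 81.6 in untreated wild type. Its groups did not overlap, but its direction in SRF-KO depended on scaling (−0.12 by TMM and 0.24 with library totals), as did that with LPS (0.37 and −0.18). The SRF-KO call by TMM was lost without SRF-KO replicate 2 (adjusted p = 0.0618 by edgeR). The other anchor, Sdhc, was lower in SRF-KO by TMM (−0.39) and at −0.032, not passed, with library totals.

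In complex III, all 6 nuclear members were called lower in SRF-KO by TMM, whereas 3 were called higher and 0 lower with library totals. Uqcrfs1, the Rieske iron-sulfur protein, had 77.2, 71.2 and 75.8 CPM in SRF-KO, 79.3, 85.9 and 78.2 in LPS-treated wild type and 51.6, 56.4 and 56.1 in untreated wild type. SRF-KO and LPS-treated wild type were close (−0.12 by TMM, 0.24 with library totals), and both were above untreated wild type by TMM. The TMM call in SRF-KO was lost without replicate 2 of LPS-treated wild type or without SRF-KO replicate 2 (adjusted p = 0.206 and 0.149 by edgeR). It rose most of its complex with LPS (0.57; 0.021, not passed, with library totals). Uqcrb, a small subunit with the largest TMM fall and the highest level per length in the complex, had 51.7, 57.0 and 54.5 CPM in SRF-KO, 63.9, 72.7 and 65.1 in LPS-treated wild type and 53.1, 52.8 and 48.9 in untreated wild type (−0.31 in SRF-KO; 0.051, not passed, with library totals). Of its windows 25.5% were shared with other genes. The core proteins Uqcrc1 and Uqcrc2, cytochrome c1 (Cyc1) and Uqcrq lay between −0.30 and −0.18 by TMM and between 0.059 and 0.17 with library totals.

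In complex IV, all 9 nuclear members were called lower in SRF-KO by TMM, and 2 lower and 2 higher with library totals. Cox8a (chr19:7215153-7217616, minus strand), a small accessory subunit with the highest level per length of the nuclear complex IV members over all libraries though not in SRF-KO, where Cox6a1 was at 143 ± 3.02 and Cox8a at 140.0 ± 6.83 CPM per kilobase, had 91.5, 84.9 and 83.5 CPM in SRF-KO, 136, 129.6 and 139.8 in LPS-treated wild type and 96.2, 109.7 and 103 in untreated wild type. It fell in SRF-KO under both scalings (−0.64, SE 0.048, adjusted p = 7.39e-15 by edgeR; −0.28 with library totals). Cox5a had 102, 106 and 102 CPM in SRF-KO, 139, 153 and 145 in LPS-treated wild type and 97.6, 97.2 and 94.5 in untreated wild type, and fell too (−0.50; −0.14 with library totals). With LPS, Cox5a had the largest TMM rise of the complex (0.60; 0.047, not passed, with library totals). Cox4i1 and Cox6c were the 2 that were higher in SRF-KO with library totals (0.15 and 0.11, against −0.20 and −0.24 by TMM). Cox5b, Cox6a1, Cox7a2, Cox7c and Ndufa4, a subunit long assigned to complex I, lay between −0.44 and −0.34 by TMM and did not pass with library totals.

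Complex V was represented by the α, β and γ subunits of its catalytic head, Atp5a1, Atp5b and Atp5c1. Atp5a1 had 569, 579 and 575 CPM in SRF-KO, 767, 740.0 and 760.3 in LPS-treated wild type and 529, 520.0 and 518 in untreated wild type. LPS-treated wild type was the highest by TMM (−0.40 in SRF-KO over LPS-treated wild type, 0.53 with LPS), and neither difference passed with library totals (−0.040 and −0.017). Atp5b had 764, 774 and 769.5 CPM in SRF-KO, 936, 911 and 940.2 in LPS-treated wild type and 652, 659 and 648 in untreated wild type. Its order was the same by TMM (−0.27 and 0.51), with 0.083, called higher, in SRF-KO and −0.041, not passed, with LPS by library totals. Per length Atp5a1 had the highest mean of the nuclear members, at 183 ± 1.6 CPM per kilobase in SRF-KO, 241 ± 4.49 in LPS-treated wild type and 167 ± 1.92 in untreated wild type, but in SRF-KO it did not differ from Atp5b (182 ± 1.2) beyond their spread, nor in untreated wild type from Cox8a (167 ± 10.9). Atp5c1 was lower in SRF-KO by TMM (−0.32; 0.036, not passed, with library totals).

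**Figure D5:**
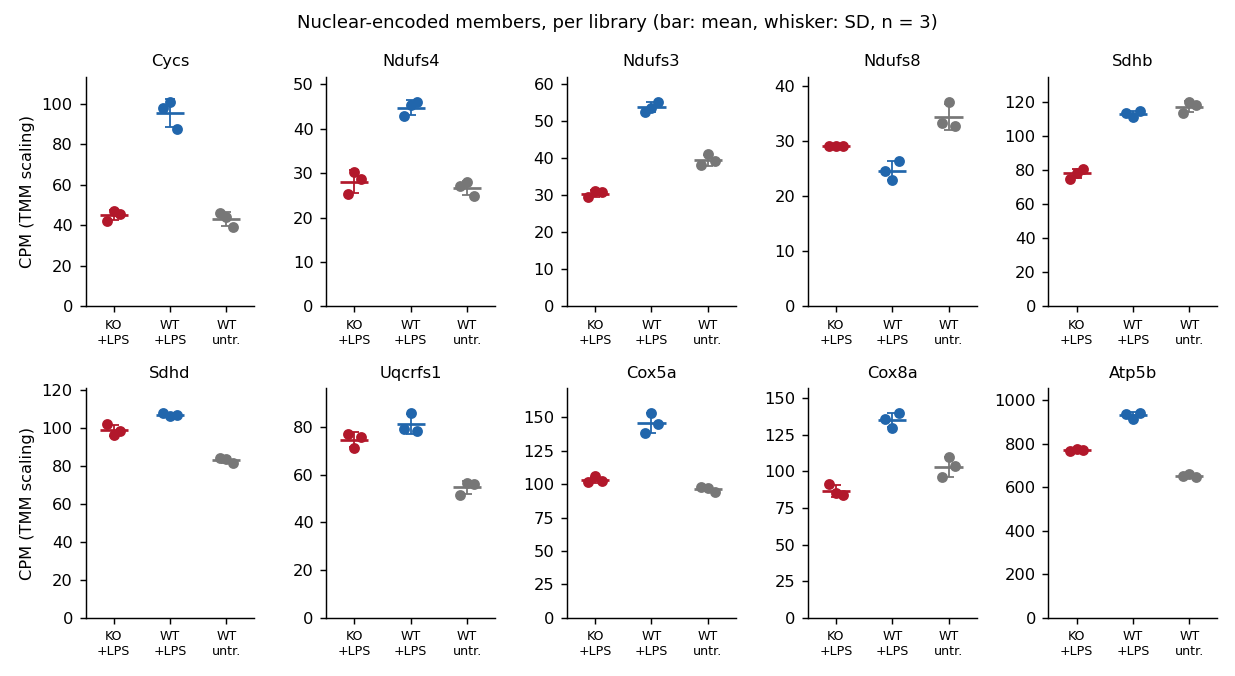
Level of 10 nuclear-encoded members in CPM with TMM scaling, per library (points), with the group mean (line) and SD (whisker, n = 3), for SRF-KO with LPS, LPS-treated wild type and untreated wild type from left to right; each panel has its own axis from 0. Cycs and Ndufs4 are high in LPS-treated wild type alone, Ndufs8 is lowest there, and Ndufs3 and Sdhb are lowest in SRF-KO; with library totals Cycs and Ndufs4 are still on average highest in LPS-treated wild type, Ndufs8 lowest there, and Ndufs3 and Sdhb lowest in SRF-KO, while Sdhd, Uqcrfs1 and Atp5b were higher in SRF-KO than in LPS-treated wild type (0.24, 0.24 and 0.083 on the log2 scale).

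In wild type, LPS was followed by higher levels of most nuclear members relative to other genes, while the calls of single members depended on the scaling. By TMM 25 of 37 nuclear members rose and 2 fell, with a median log2 fold change of 0.30 beside −0.018 over all genes, where 40.8% of all genes rose and 40.8% fell. Of the mitochondrial members 4 of 6 rose and 0 fell (median 0.15). With library totals all values shifted down by 0.55, and 21% of all genes were called higher and 67.8% lower. Of the nuclear members 2 were called higher and 29 lower, and all 6 mitochondrial members were called lower. The median was then −0.25 over the nuclear members and −0.57 over all genes, a distance that the shift of all values leaves as it was. Cycs and Ndufs4 rose under both scalings, and Ndufs7 and Ndufs8 fell under both, whereas 17 nuclear members and 4 mitochondrial members were called higher by TMM and lower with library totals.

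By complex, all 6 nuclear members of complex III and 8 of 9 of complex IV rose by TMM, but 7 of 15 of complex I and 1 of 3 of complex II; with library totals 4 of 6, 8 of 9, 13 of 15 and 3 of 3 were called lower. The ratio of summed complex I to complex V nuclear counts, which does not depend on scaling, was 0.381, 0.394 and 0.393 in LPS-treated wild type, against 0.490, 0.518 and 0.506 in untreated wild type, with no overlap. For complex II to complex V it was 0.174, 0.175 and 0.175 in LPS-treated wild type, against 0.219, 0.232 and 0.234 in untreated wild type. Relative to the summed complex V members, complexes I and II were thus lower with LPS in every library, by 0.37 and 0.38 on the log2 scale. Most complex V counts came from Atp5a1 and Atp5b (9523 and 11626 in replicate 1 of LPS-treated wild type, against 1904 from Atp5c1). With LPS, Atp5c1 itself was at 0.061, not passed, by TMM and −0.49 with library totals, near the complex I medians of 0.11 and −0.44. In SRF-KO the ratios to complex V were 0.405, 0.392 and 0.400 for complex I and 0.177, 0.168 and 0.176 for complex II, overlapping with LPS-treated wild type.

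For the mitochondrial members, the LPS values by TMM were 0.29 for mt-Nd5, 0.22 for mt-Co1, 0.16 for mt-Cytb and 0.14 for mt-Nd4, all called higher, whereas with library totals the 6 values lay between −0.59 and −0.26 and all were called lower. By TMM mt-Nd1 (0.026) and mt-Nd2 (−0.044) did not pass. The call of mt-Nd4 by TMM was lost without untreated replicate 3 or without replicate 2 of LPS-treated wild type (adjusted p = 0.068 and 0.0699 by edgeR). The mitochondrial members took 1.37% to 1.57% of all counts in SRF-KO, 0.772% to 0.892% in LPS-treated wild type and 0.981% to 1.10% in untreated wild type. The 37 nuclear members took 0.377% to 0.380%, 0.369% to 0.376% and 0.421% to 0.433% in the groups in that order.

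Set against untreated wild type, SRF-KO cells with LPS differ in both genotype and treatment, and the comparison shares its libraries with the other comparisons. All 6 mitochondrial members were higher in SRF-KO by TMM (range 0.46 to 1.06) and with library totals (0.27 to 0.87), where 39.4% and 29.8% of all genes were called higher. Of the nuclear members 10 were higher and 15 lower by TMM, where 40.1% of all genes were lower, and 1 higher and 26 lower with library totals, where 52.3% of all genes were lower. The 15 that were lower under both scalings were 9 of complex I (Ndufa8, Ndufa9, Ndufb5, Ndufb8, Ndufb9, Ndufs3, Ndufs7, Ndufs8 and Ndufv2), Sdhb and Sdhc of complex II, Ndufa4, Cox7c and Cox8a of complex IV, and Atp5c1. Uqcrfs1 was higher under both (0.45 and 0.26). By TMM the calls of Ndufb9 and Cox7c were lost without untreated replicate 2 (adjusted p = 0.0704 and 0.0875 by edgeR), that of Ndufb9 also without SRF-KO replicate 2 (0.0647) and that of Cox7c also without SRF-KO replicate 1 (0.175).

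Nuclear subunit genes outside the 37 were counted in the same way. For this and the lists that follow, the shares of all tested genes called higher and lower were 39.1% and 37.9% in SRF-KO by TMM and 61.1% and 21.1% with library totals, and with LPS 40.8% and 40.8% by TMM and 21% and 67.8% with library totals. Of 21 other complex I subunits 0 rose and 16 fell in SRF-KO by TMM (median −0.32), against 6 and 2 with library totals (median 0.034). The largest falls were in Ndufc2 of complex I (−0.62; −0.26 with library totals), Cox6b1 of complex IV (−0.36; −0.00097, not passed) and Atp5e of complex V (−0.55; −0.19). Among 9 tested subunits of complexes II to IV 1 rose and 5 fell in SRF-KO by TMM (5 and 1 with library totals). The one that rose by TMM was Cox7a2l (0.20, and 0.55 with library totals). Among 15 of the ATP synthase 1 rose and 12 fell by TMM (6 and 1 with library totals), and the one that rose by TMM was Atpif1 (0.27; 0.62), an inhibitor of the enzyme's ATP hydrolysis. With LPS 7 of 21, 4 of 9 and 10 of 15 rose by TMM in these lists and 3, 0 and 3 fell. Uqcrh of complex III (0.41) and Usmg5 of the ATP synthase (0.81) rose most in their lists by TMM, while Ndufb10 (−0.37) and Atpif1 (−0.42) fell most; with library totals 19, 8 and 13 were called lower, Uqcrh (−0.14) among them.

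Assembly factors are not part of the finished complexes, and among them Sco1 and Sco2 deliver copper to complex IV. Sco1 averaged 22.3 ± 1.49 CPM in LPS-treated wild type and 7.75 ± 0.881 CPM in untreated wild type (SD, n = 3 each), a log2 fold change of 1.53, and Sco2 4.37 ± 0.23 and 12.3 ± 1.01 CPM, −1.49. Both directions held with library totals (0.98 and −2.04). Coa5, a complex IV assembly factor, averaged 140.2 ± 3.45 CPM in SRF-KO and 382 ± 14.5 CPM in LPS-treated wild type (−1.44; −1.09 with library totals), and Ttc19, a complex III factor, averaged 32.6 ± 2.32 CPM in SRF-KO and 12.3 ± 0.235 CPM in LPS-treated wild type (1.41; 1.77). Over the 31 assembly factors of complexes II to V, 7 rose and 18 fell in SRF-KO by TMM (12 and 5 with library totals), and 11 rose and 14 fell with LPS (5 and 23). Among 14 complex I assembly factors 3 rose and 5 fell in SRF-KO (9 and 1 with library totals), led by Ecsit (0.69) and Foxred1 (−0.84), and 1, Foxred1 (0.42; −0.13, lower, with library totals), rose and 7 fell with LPS (0 and 14), with the largest fall in Ndufaf4 (−1.20).

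Of 15 tested genes of mitochondrial DNA replication and transcription 6 rose and 2 fell in SRF-KO by TMM (13 and 1 with library totals), a share of higher calls by TMM near that of all genes (39.1%), with the largest rise in Polrmt, the mitochondrial RNA polymerase (0.47). With LPS 1 rose and 8 fell (0 and 13), Primpol, a primase-polymerase, the most (−0.95). Of 19 genes of mitochondrial RNA processing and stability 11 rose and 4 fell in SRF-KO (15 and 3), and 5 rose and 10 fell with LPS (3 and 16). Pnpt1, a polynucleotide phosphorylase of mitochondria, averaged 53.6 ± 4.14 CPM in SRF-KO, 114 ± 5.98 in LPS-treated wild type and 45.1 ± 3.68 in untreated wild type (SD, n = 3 each), so that it was lower in SRF-KO (−1.08; −0.72 with library totals) and higher with LPS (1.34; 0.79). Fastkd1 had the largest rise of the list in SRF-KO (0.68; 1.04), and Lrpprc, which stabilises mitochondrial mRNAs, the largest fall with LPS (−0.93; −1.48).

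Of 30 mitochondrial ribosome genes 4 rose and 14 fell in SRF-KO (19 and 1 with library totals, the higher calls near the 61.1% of all genes), with Mrps18b (0.79) and Mrpl4 (−0.57) at the ends, and 7 rose and 13 fell with LPS (0 and 29), with Mrpl44 (0.51; −0.044, not passed, with library totals) and Mrps18b (−0.98) at the ends. Of 10 tested regulators of mitochondrial biogenesis 5 rose and 1 fell in SRF-KO (8 and 1), and 1 rose and 3 fell with LPS (1 and 9). Esrra, which encodes an oestrogen-related receptor, was the one that fell in SRF-KO (−0.71; −0.35 with library totals) and rose with LPS (1.22; 0.67), while Gabpb2, a subunit of GABP, rose most in SRF-KO (0.79) and Pprc1, a coactivator, fell most with LPS (−1.26). Of 8 tested supercomplex, isoform and uncoupling genes 4 rose and 3 fell in SRF-KO (5 and 0), with Ucp2, an uncoupling protein, at 0.45 and Vdac3, an outer membrane channel, at −0.38 (−0.027, not passed, with library totals), and 3 rose and 2 fell with LPS (2 and 6), with Higd1a at 1.26 and Ucp2 at −0.43. All 12 cell cycle genes were higher in SRF-KO (median log2 fold change 3.37) and lower with LPS (median −2.92), with Ccna2 (4.27) and Mcm2 (−3.79) at the ends, under both scalings.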

How the data were processed

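RNA of 9 libraries of mouse macrophages was sequenced from stranded TruSeq preparations, per the labels' protocols. The deposited files hold counts of reads per gene, not normalized. Of the tools listed in the submitters' processing notes, STAR 2.5.4b aligns and featureCounts counts, and bcl2fastq 2.19, Trimmomatic, edgeR and the build GRCm38 are listed too. No annotation release or strand setting is given in the sources used here.

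All 22524 counted genes entered and 11560 passed filterByExpr. Groups were compared in 1 fit over the 9 libraries with edgeR 4.0.16 (robust quasi-likelihood test, TMM factors, R 4.3.3). Values were adjusted by the Benjamini-Hochberg method over all tested genes, with calls below 0.05. The test was tried on simulated data. Of 100 genes given a 1.25-fold change, drawn without regard to membership, 69% were recovered for LPS and 64% for SRF-KO over LPS-treated wild type. At 2-fold the shares were 99% and 98%. Of the unchanged genes, 9 were called for LPS and 8 for SRF-KO over LPS-treated wild type. The simulation changed few genes, as many up as down, and gave all genes the same dispersion. Genes with low counts were not drawn. It therefore does not bear on the choice of scaling. Library totals from 15321839 to 24912173 set the precision of low counts. Alternatives were library totals, totals of nuclear genes, DESeq2 1.42.0 and its size factors, no filter, 6 libraries, a replicate block and leaving out each library. Levels in CPM are TMM-scaled, and levels per length use exon lengths from GENCODE vM21, which also gave coordinates.

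The members and lists were chosen with earlier results of these data known. Genes were named by a rule. It takes every mitochondrial member, and per complex the nuclear members with the largest rise, the largest fall and the highest level per length. It also takes members against most of their complex and, per list, the passing gene with the largest rise and fall at a mean log2 CPM of at least 3. Promoters are from RefSeq. Mitochondrial ribosomal RNA genes were not analysed here. Some named genes are not reported here.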

Additional observations from a re-analysis of the deposited data

How the results depend on the processing

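The direction and call of the mitochondrial members in SRF-KO held under all alternatives run: 6 of 6 were higher than in LPS-treated wild type and than in untreated wild type by each scaling, with DESeq2, with no filter, with only the 6 libraries of a comparison, with the replicate block and without any 1 library. Counts of nuclear members turned on the scaling, which moves all genes of a comparison by 1 value. In SRF-KO over LPS-treated wild type, library totals and totals of nuclear genes each gave 13 nuclear members higher and 7 lower. In LPS-treated over untreated wild type each gave 2 higher and 29 lower, and 0 mitochondrial members higher and 6 lower. In SRF-KO over untreated wild type each gave 1 higher, with 26 lower by library totals and 24 by totals of nuclear genes. DESeq2 called 1 nuclear member lower with LPS; the cause was not tested.

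The log2 difference in the ratio of mitochondrial to nuclear members was 1.16 as a median per exon length and 1.10 without mt-Co1 in SRF-KO over LPS-treated wild type, and 1.08 and 0.88 in SRF-KO over untreated wild type. Leaving out 1 library at a time gave 0.76 to 0.89 and 0.58 to 0.69 for these comparisons, and −0.25 to −0.14 for LPS. The same step gave 30 to 32 nuclear members lower in SRF-KO over LPS-treated wild type, 24 to 25 higher and 1 to 2 lower with LPS, with 3 to 4 mitochondrial members higher, and 9 to 11 higher and 13 to 16 lower in SRF-KO over untreated wild type. Beyond the lost calls given with the results, by edgeR and TMM, the LPS call of Ndufa9 was lost without untreated replicate 1 or replicate 3 of LPS-treated wild type (adjusted p = 0.0923 and 0.0751). That of Ndufv2 was lost without untreated replicate 1, untreated replicate 3 or replicate 2 of LPS-treated wild type (0.132, 0.0769 and 0.222). In SRF-KO over untreated wild type, that of Cox5a was lost without untreated replicate 2, untreated replicate 3 or SRF-KO replicate 2 (0.0577, 0.106 and 0.146). Ndufv1 and Atp5c1 with LPS, and Ndufs4 and Cox5b in SRF-KO over untreated wild type, passed with 1 library left out. Counts of at most 3 per library left the 6 adjacent mitochondrial genes untested. Deviations of same-numbered libraries from their group means correlated between −0.075 and 0.097 over genes. Differently numbered libraries were not compared in this way, so whether replicate numbers pair the libraries remains unknown. With the replicate block, 26 nuclear members were higher and 2 lower with LPS, 1 higher and 32 lower in SRF-KO over LPS-treated wild type, and 10 higher and 16 lower in SRF-KO over untreated wild type.

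With library totals, the log2 fold changes in SRF-KO over LPS-treated wild type that took the other sign were, in complex I, Ndufa1 0.28, Ndufa2 0.055, Ndufa9 0.089, Ndufb3 0.22 and Ndufb5 0.19. Complex II gave Sdhd 0.24. Complex III gave Uqcrc1 0.14, Uqcrc2 0.059, Uqcrfs1 0.24, Uqcrb 0.051, Uqcrq 0.10 and Cyc1 0.17. Complex IV gave Cox4i1 0.15, Cox6a1 0.0201 and Cox6c 0.11. Complex V gave Atp5b 0.083 and Atp5c1 0.036. With totals of nuclear genes, values that differ at the printed digits were Ndufa1 0.29, Ndufa2 0.064, Ndufa9 0.10, Ndufb3 0.23, Ndufb5 0.20, Sdhd 0.25, Uqcrc1 0.15, Uqcrc2 0.068, Uqcrb 0.0601, Uqcrq 0.11, Cyc1 0.18, Cox4i1 0.16, Cox6a1 0.029, Cox6c 0.12, Atp5b 0.093 and Atp5c1 0.045. With library totals, the log2 fold changes in LPS-treated over untreated wild type that took the other sign were, in complex I, Ndufa1 −0.35, Ndufa2 −0.26, Ndufa9 −0.42, Ndufb3 −0.54, Ndufb9 −0.23, Ndufs3 −0.10, Ndufv1 −0.44 and Ndufv2 −0.40. Complex II gave Sdhd −0.18. Complex III gave Uqcrc1 −0.31, Uqcrc2 −0.078, Uqcrb −0.17, Uqcrq −0.37 and Cyc1 −0.20. Complex IV gave Ndufa4 −0.49, Cox4i1 −0.21, Cox5b −0.22, Cox6a1 −0.24, Cox6c −0.12, Cox7a2 −0.17, Cox7c −0.25 and Cox8a −0.16. Complex V gave Atp5a1 −0.017, Atp5b −0.041 and Atp5c1 −0.49. Mitochondrial members gave mt-Nd1 −0.52, mt-Nd4 −0.41, mt-Nd5 −0.26, mt-Co1 −0.33 and mt-Cytb −0.39. With totals of nuclear genes, values that differ at the printed digits were Sdhd −0.19, Uqcrc1 −0.32, Uqcrc2 −0.081, Cyc1 −0.21, Cox5b −0.23, Cox6a1 −0.25, Atp5a1 −0.0204, Atp5b −0.044 and mt-Nd1 −0.53. With library totals, the log2 fold changes in SRF-KO over untreated wild type that took the other sign were, in complex I, Ndufs1 −0.16 and Ndufv1 −0.041. Complex III gave Uqcrc1 −0.17, Uqcrc2 −0.019, Uqcrb −0.12 and Cyc1 −0.029. Cytochrome c gave Cycs −0.14. Complex IV gave Cox4i1 −0.056, Cox5a −0.093 and Cox6c −0.0024. Complex V gave Atp5a1 −0.057. With totals of nuclear genes, values that differ at the printed digits were Ndufv1 −0.035, Uqcrc1 −0.16, Uqcrc2 −0.013, Cyc1 −0.023, Cycs −0.13, Cox4i1 −0.0498, Cox5a −0.087 and Atp5a1 −0.051.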
